A study of Mus musculus with 2 samples.

Results

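The Kruppel-like factors are zinc-finger transcription factors that bind CACCC and GC-rich boxes in promoters, and the members of the family differ in the partners they bring to DNA. Some are known mainly as repressors, such as Klf3, Klf9, Klf10 and Klf13, and some as activators or as factors of both kinds, such as Klf2, Klf4, Klf5, Klf6 and Klf7. Several of them are induced within minutes to hours of a signal, among them the shear stress response gene Klf2, the glucocorticoid and thyroid hormone response gene Klf9 and the TGF-beta response gene Klf10. In the mammary epithelium the basal cells surround the ducts and contract, luminal progenitors (LP) can give rise to milk-producing cells, and mature luminal cells (ML) carry most of the hormone receptors.

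The 9 members described here were Klf2, Klf3, Klf4, Klf5, Klf6, Klf7, Klf9, Klf10 and Klf13, matched by gene symbol among the 27998 genes of the deposited tables. All 9 had counts in every compartment, and all passed the minimum of 30 counts in every comparison. The data were 2 single-cell libraries from the mammary glands of untreated adult female FVB/NJ mice at 10 weeks of age, made by droplet capture and sequencing of transcript 3' ends, in which each molecule is counted once by its molecular identifier (UMI). The sorted basal library held 4771 Lin-CD29hiCD24+ cells and the total epithelial library 3302 Lin-CD24+ cells, where Lin- stands for cells negative for TER119, CD31 and CD45. Each library was made from a pool of 4 mice, so that the spread between mice is unknown and no difference below has a replicate check or a p-value.

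Cells of the total epithelial library were assigned by markers that do not include a Klf gene. There were 1280 basal cells with at least 10 counts of Krt5, Krt14 and Acta2, 1133 ML cells with at least 10 counts of Prlr, Stc2 and Gpx3, and 766 LP cells, which met neither minimum and had at least 3 counts of Krt8, Krt18 and Krt19. A further 26 cells met both minimums and were left out, and 97 cells met none and are called unassigned. The median was 1820 counts per basal cell, 2483.5 per LP cell, 3403 per ML cell and 487 per cell of the sorted basal library. Counting the genes the rule used, the 8 basal markers were all at least 2-fold higher in basal cells than in LP or ML cells, the 8 LP markers all at least 2-fold higher in LP than in basal or ML cells, and the 9 ML markers all at least 2-fold higher in ML than in basal or LP cells. Without the genes of the rule, the 5 remaining basal markers summed to 0.833% of their basal level in LP cells and 0.344% in ML cells, and the 6 remaining ML markers to 0.991% of their ML level in basal cells and 10.04% in LP cells. In the sorted basal library, the 5 basal markers stood at 88.9% of the level in basal cells of the total epithelium, and all 8 at 61.8%. The sums hide differences in both directions. Acta2 and Cnn1 were at least 2-fold higher in basal cells of the total epithelium, and Mylk in the sorted basal library. Summed LP markers stood at 12.1% of their LP level in basal cells and 9.88% in ML cells. Of 5 leukocyte genes Ptprc, Cd52 and Cd3e had no count in any compartment, where 3 counts would be 0.726 counts per 1000000 (CPM) in ML and 1.39 CPM in LP cells. The other leukocyte genes had counts, with Cd74 at 41.1 CPM in basal, 3.71 CPM in LP and 1.69 CPM in ML cells and Lyz2 at 3.39 CPM or less in these compartments. The libraries shared 28 cell barcodes.

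The promoters of Klf2, Klf4 and Klf6 are shown because these genes varied together from cell to cell, as described further on. The sequences are the 250 bases before the RefSeq transcription start (GRCm38.p6), on the strand of the gene. Capitals mark CACCC boxes (CACCC or GGGTG), GC boxes (GGGCGG or CCGCCC) and the binding element of MEF2 factors, all searched on both strands.
Klf2, chr8:72318812-72319061, + strand: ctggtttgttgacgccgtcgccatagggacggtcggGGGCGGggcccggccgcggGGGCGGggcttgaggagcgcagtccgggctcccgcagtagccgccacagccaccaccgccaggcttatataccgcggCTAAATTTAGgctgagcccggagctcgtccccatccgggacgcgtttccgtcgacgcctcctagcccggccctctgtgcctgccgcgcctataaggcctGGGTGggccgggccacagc
Klf4, chr4:55532476-55532725, - strand: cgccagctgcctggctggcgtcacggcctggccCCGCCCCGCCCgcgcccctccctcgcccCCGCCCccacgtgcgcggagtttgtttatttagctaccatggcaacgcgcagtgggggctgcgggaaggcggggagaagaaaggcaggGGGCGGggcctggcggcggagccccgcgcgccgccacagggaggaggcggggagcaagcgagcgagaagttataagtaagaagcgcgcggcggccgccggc
Klf6, chr13:5861239-5861488, + strand: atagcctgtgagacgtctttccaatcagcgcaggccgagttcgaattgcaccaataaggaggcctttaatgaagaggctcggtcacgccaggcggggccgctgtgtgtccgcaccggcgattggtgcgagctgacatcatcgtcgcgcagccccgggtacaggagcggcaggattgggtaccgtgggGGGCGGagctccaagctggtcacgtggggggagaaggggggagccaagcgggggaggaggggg

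The Klf2 promoter held 1 MEF2 element, CTAAATTTAG, from base 118 to base 109 before the start, and a CACCC box from base 19 to base 15. It also held 2 GC boxes, the Klf4 promoter held 4 and the Klf6 promoter held 1, and the first pair in Klf4 overlap by 1 base. Of the 7 members matched in the promoter table, which were Klf2, Klf3, Klf4, Klf6, Klf7, Klf9 and Klf13, a MEF2 element was found in Klf2 alone, and the serum response element known as the CArG box in none. Among all 32851 promoters of the same length, 2.92% held a MEF2 element, 1.47% a CArG box, 52.0% a CACCC box and 32.7% a GC box. CACCC boxes lay in 5 of the 7 members and GC boxes in 6 of the 7. The gene positions given below come from GENCODE and differ from the RefSeq starts. By those positions the Klf7 window lies inside the gene, and the Klf2, Klf3 and Klf6 windows end inside it. Some matches, such as the CACCC box of Klf2, therefore lie after the GENCODE start. A match says that the letters are present and does not show a bound site, and the absence of a match says only that these letters are not in this window.

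Klf2 (chr8:72319033-72321656 on GRCm38, which is mm10) was the member with the widest range between compartments. It is best known as a guardian of quiescence in endothelial cells and lymphocytes. Levels are given as CPM of the counts summed over the cells of a compartment, with exact Poisson 95% intervals, and all intervals here cover counting error only. Klf2 stood at 459 CPM in basal cells (434 to 486), 568 CPM in LP cells (536 to 600) and 2416 CPM in ML cells (2369 to 2464), that is 5.26-fold higher in ML than in basal cells (4.96 to 5.59) and 4.26-fold higher in ML than in LP cells (4.01 to 4.52). As deposited, 38.2% of the basal cells, 32.9% of the LP cells and 74.9% of the ML cells had a Klf2 count. After thinning every cell to 800 counts, which removes the difference in depth, the shares were 21.9% (19.6 to 24.2), 21.4% (18.6 to 24.5) and 54.0% (51.1 to 56.9).

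The Klf2 counts were uneven among cells of the same compartment. In ML cells, the median was 3 counts per cell, the upper quartile 11 and the maximum 132. The 10% of cells with the most Klf2 counts held 48.1% of them in ML, 60.4% in basal and 77.1% in LP cells. After thinning to 800 counts, 26.5% of ML cells had 3 or more Klf2 counts, as against 7.96% of LP and 2.50% of basal cells.

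**Figure D1:**
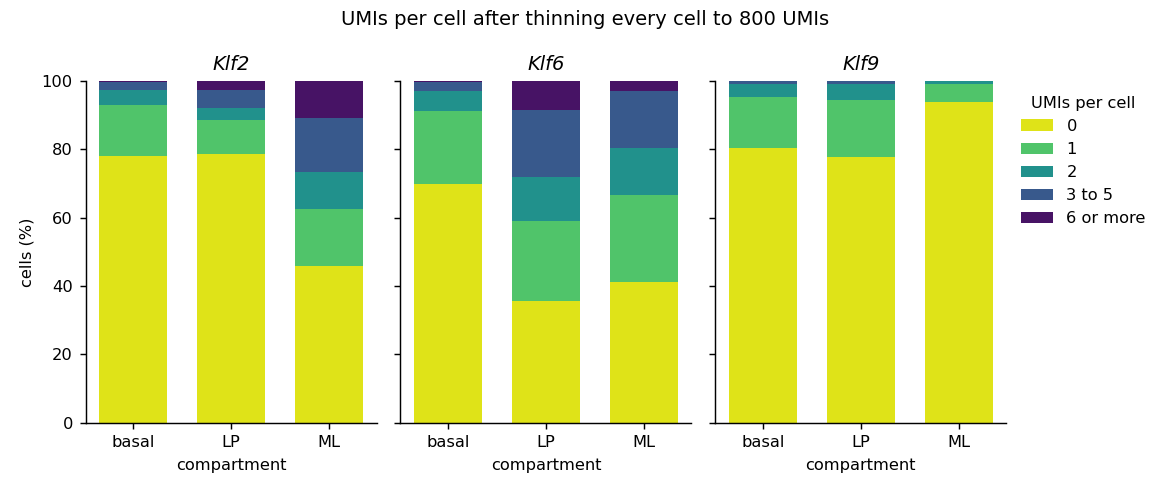
Share of cells (y axis, percent) by the number of UMIs of Klf2, Klf6 and Klf9 in the cell after thinning every cell to 800 UMIs, in 1280 basal, 766 LP and 1133 ML cells (x axis). Cells with 6 or more Klf2 UMIs made up 10.8% of ML, 2.61% of LP and 0.313% of basal cells, and cells with no Klf9 UMI made up most of every compartment.

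The LP level of Klf2 depended on which cells were taken as LP. With a minimum of 20 counts of the basal or ML markers, which moved cells with fewer such counts into LP, the log2 ratio of LP to ML cells was -1.35 in place of -2.09. In the 650 LP cells with at most 2 counts of Prlr, Stc2 and Gpx3, Klf2 stood at 473 CPM (442 to 505), an interval that overlaps that of basal cells. In the other 116 LP cells it stood at 1149 CPM (1032 to 1277), between the LP and the ML level. These 116 cells also had less Klf9, at 146 CPM (106 to 196) as against 413 CPM (384 to 443), less Klf5, at 69.6 CPM (43.1 to 106) as against 187 CPM (168 to 208), and less Klf10, at 219 CPM (169 to 278) as against 394 CPM (366 to 424). On these 4 genes the 116 cells therefore lay on the ML side of the remaining LP cells. Klf4 did not separate the subsets, with 262 CPM (207 to 326) in the 116 cells and 262 CPM (240 to 287) in the 650 cells. The 650 cells had a median of 2550 counts and the 116 cells of 1926, and the part of this difference in the result was not tested.

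Klf6 (chr13:5861482-5870394), a widely expressed factor induced by injury and growth signals, was high in both luminal compartments. Its level was 580 CPM in basal cells (552 to 610), 2411 CPM in LP cells (2346 to 2478) and 1761 CPM in ML cells (1721 to 1802). Klf6 was 4.15-fold higher in LP than in basal cells (3.92 to 4.40) and 3.03-fold higher in ML than in basal cells (2.87 to 3.21). Between the luminal compartments it was 1.37-fold higher in LP (1.32 to 1.42), which is under 2-fold. With 800 counts per cell, Klf6 was counted in 30.2% of basal cells, 64.5% of LP cells and 58.7% of ML cells, and the median cell as deposited had 0 counts in basal and 4 counts in LP and in ML cells. Klf2 and Klf6 together were found in 38.0% of ML cells thinned to 800 counts, 16.8% of LP and 7.03% of basal cells. These joint shares also depend on the share of cells with each gene alone, and were not corrected for it.

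**Figure D2:**
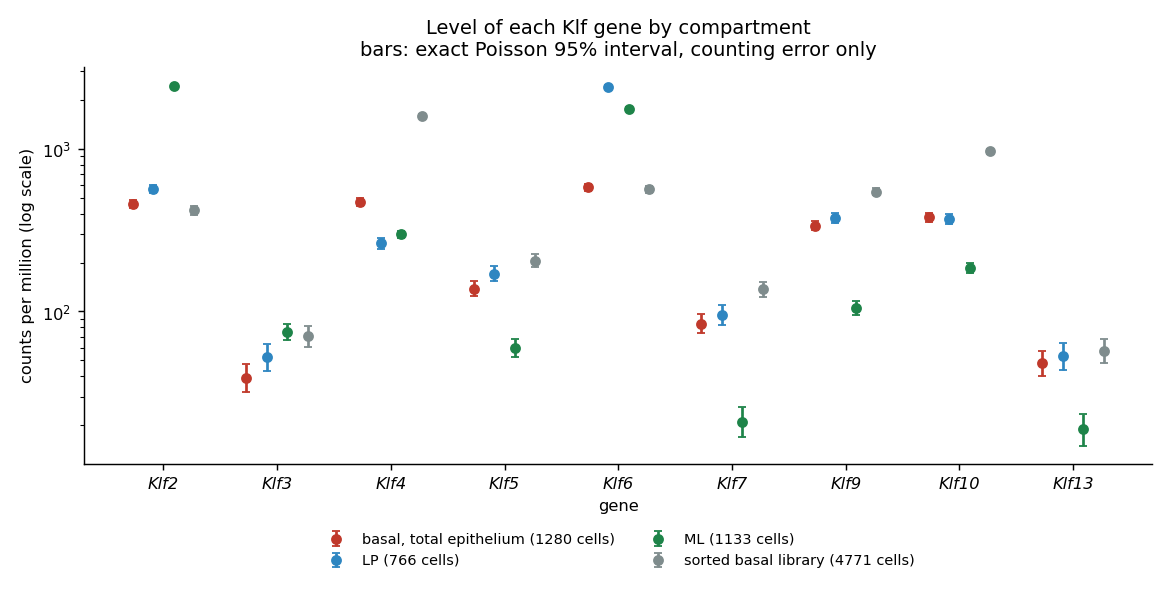
Counts per 1000000 (y axis, log scale) of the 9 Klf genes (x axis) in basal, LP and ML cells of the total epithelial library and in the sorted basal library, with exact Poisson 95% intervals. Klf2 was highest in ML cells, Klf6 was higher in LP and ML than in basal cells, and Klf5, Klf7, Klf9 and Klf13 were lowest in ML cells. Levels of different genes are not compared, since they also depend on how well each 3' end is captured.

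Klf5, Klf7, Klf9 and Klf13 shared the opposite pattern to Klf2, with their lowest level in ML cells. Their basal levels were 0.810 to 0.906 of their LP levels. Klf9 (chr19:23141226-23168134), a hormone-induced repressor, stood at 337 CPM in basal cells (315 to 360), 376 CPM in LP cells (350 to 402) and 105 CPM in ML cells (95.4 to 115). It was 3.21-fold higher in basal than in ML cells (2.86 to 3.60) and 3.58-fold higher in LP than in ML cells (3.18 to 4.03). At 800 counts per cell, 19.7% of basal cells, 22.2% of LP cells and 6.27% of ML cells had a Klf9 count. As deposited these shares were 39.6%, 51.3% and 21.5%, with ML cells the deepest of the 3 compartments.

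Klf7 (chr1:64029447-64122282), known for its part in the development of neurons, had fewer counts and a larger ratio. It was at 84.1 CPM in basal cells (73.4 to 95.9), 94.97 CPM in LP cells (82.4 to 109) and 21.1 CPM in ML cells (16.9 to 26.0). The LP level was 4.51-fold the ML level (3.49 to 5.87) and the basal level 3.99-fold (3.10 to 5.18).

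Klf5 (chr14:99298691-99315036), a factor of proliferating epithelia such as intestinal crypts, was at 138 CPM in basal cells (125 to 153), 171 CPM in LP cells (154 to 189) and 59.5 CPM in ML cells (52.3 to 67.4). It was 2.33-fold higher in basal (1.97 to 2.74) and 2.87-fold higher in LP than in ML cells (2.44 to 3.39). Klf13 (chr7:63886351-63938915), a repressor that is also known as an activator of the chemokine gene Ccl5 in T cells, was at 48.3 CPM in basal cells (40.3 to 57.4), 53.3 CPM in LP cells (44.0 to 64.0) and 18.9 CPM in ML cells (14.9 to 23.6). Its basal level was 2.56-fold (1.92 to 3.43) and its LP level 2.82-fold (2.10 to 3.81) the ML level. The lower bounds of the Klf5 and Klf13 ratios of basal to ML cells were under 2-fold.

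The remaining 3 members differed less. Klf10 (chr15:38291463-38300706), the TGF-beta-inducible early gene, was at 379 CPM in basal cells (356 to 403), 370 CPM in LP cells (344 to 396) and 185 CPM in ML cells (172 to 199). Its ratio to ML lay at the 2-fold limit on both sides, with 2.05-fold for basal (1.86 to 2.25) and 1.997-fold for LP cells (1.81 to 2.21). Klf4 (chr4:55527143-55532466), a reprogramming factor that also guides the barrier program of the skin, was highest in basal cells, at 473 CPM (447 to 500) as against 262 CPM in LP (241 to 285) and 297 CPM in ML cells (281 to 314). Klf3 (chr5:64803388-64832901), a repressor that recruits the corepressor CtBP, was at 39.2 CPM in basal (32.0 to 47.5), 52.4 CPM in LP (43.1 to 62.9) and 74.5 CPM in ML cells (66.4 to 83.3), an order in which the intervals of basal and LP cells overlap. The log2 ratio of Klf3 in LP against ML cells was -0.51, but -0.07 with every cell thinned to 800 counts. At that depth 4.31% of LP cells and 4.77% of ML cells had a Klf3 count.

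**Figure D3:**
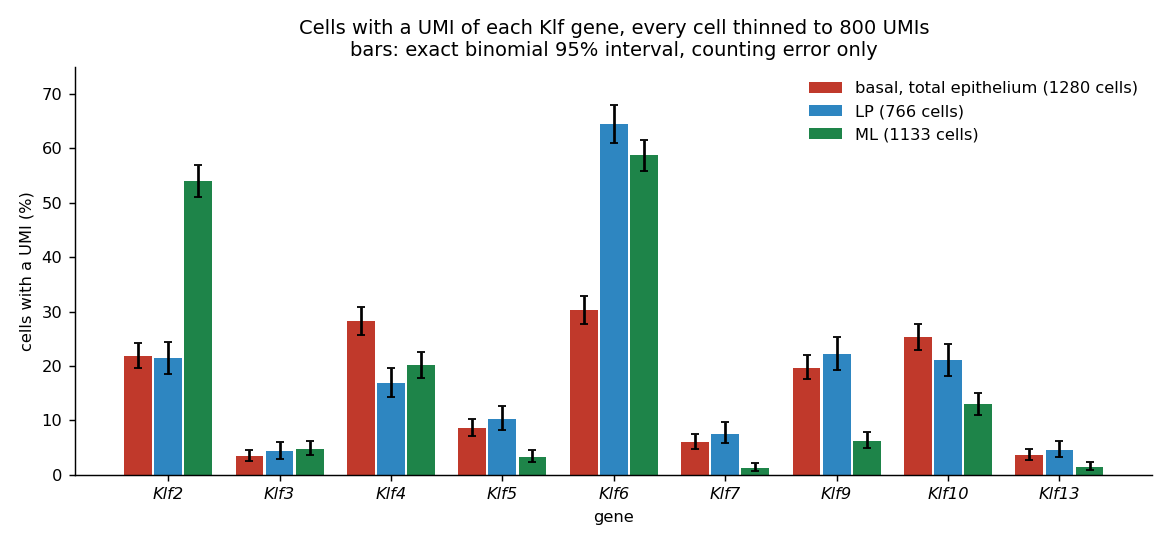
Share of cells with a UMI (y axis, percent, exact binomial 95% intervals) of each Klf gene (x axis) in 1280 basal, 766 LP and 1133 ML cells, all thinned to 800 UMIs per cell. Klf2 was found in 54.0% of ML, 21.9% of basal and 21.4% of LP cells, and Klf6 in 64.5% of LP, 58.7% of ML and 30.2% of basal cells.

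Set against all genes, the members divided most between basal and ML cells. Among 9521 genes with at least 30 counts, 19.1% were at least 2-fold higher in basal and 19.3% at least 2-fold higher in ML cells. Of the 9 members, 5 were at least 2-fold higher in basal cells (Klf5, Klf7, Klf9, Klf10 and Klf13) and 2 in ML cells (Klf2 and Klf6). The median log2 ratio of basal to ML cells was 1.03 over the members and -0.05 over all genes. Between LP and ML cells, 4 members were at least 2-fold higher in LP (Klf5, Klf7, Klf9 and Klf13; 9.75% of 8950 genes) and 1 in ML cells (Klf2; 17% of genes), with a median log2 ratio of LP to ML of 0.998 over the members and -0.29 over all genes. Between basal and LP cells, Klf6 alone passed 2-fold, as 1 of 9 members higher in LP (11.6% of 8653 genes), and 0 of 9 members were 2-fold higher in basal cells (21.1% of genes). These comparisons share compartments, so that their counts are not separate evidence. In every member the compartment with the lowest level kept 19.0% (Klf2) to 55.4% (Klf4) of the highest level. The marker sums outside their own compartment, as given above, ran from 0.344% to 12.1% of the level at home.

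The direction of the smaller ratios depended on the scaling or on the cell rule. Scaling by the median ratio over genes, in place of total counts, moved the median log2 ratio of all genes from 0.22 to 0.02 between basal and LP cells and from -0.29 to -0.06 between LP and ML cells. Between basal and LP cells the log2 ratio of Klf10 was 0.04 and ranged from -0.16 with that scaling to 0.27 with every cell thinned to 800 counts, and it was also below 0 with a marker minimum of 5 counts and in the LP cells with at most 2 ML marker counts. The log2 ratios of Klf7 and Klf13 were -0.18 and -0.14, and were above 0 under a marker minimum of 20 counts alone, at 0.04 and 0.11. The log2 ratio of Klf4 in LP against ML cells was -0.18, and 0.05 with the median-ratio scaling and 0.04 with every cell thinned to 800 counts. In all 10 alternatives run for single genes, Klf2, Klf5, Klf6, Klf7, Klf9, Klf10 and Klf13 stayed past 2-fold between basal and ML cells with the same direction. The limit on ML marker counts in LP cells was among these alternatives and could not change this ratio. Klf10 passed narrowly, with a lowest log2 ratio of 1.0003.

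The sorted basal library offered a separate look at the members in basal cells, from other mice and another gate and with fewer counts per cell. Klf4 stood at 1589 CPM in the sorted basal library (1540 to 1640) as against 473 CPM in basal cells of the total epithelium, a 3.36-fold difference (3.15 to 3.58). Klf10 stood at 962 CPM (924 to 1002) as against 379 CPM, a 2.54-fold difference (2.36 to 2.74). Thinned to 400 counts per cell, 36.0% of sorted basal cells (34.3 to 37.7) and 15.6% of basal cells of the total epithelium (13.7 to 17.7) had a Klf4 count. For Klf10 the shares were 25.4% (23.9 to 26.9) and 14.7% (12.8 to 16.7), with 1594 shallower sorted basal cells left out and no cell of the total epithelium.

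Klf2 and Klf6, the members with most counts in luminal cells, were close in the 2 libraries. Klf2 was at 418 CPM in the sorted basal library (393 to 444) and 459 CPM in basal cells of the total epithelium, and Klf6 was at 563 CPM (534 to 594) and 580 CPM. Klf3, Klf5, Klf7 and Klf9 were 1.49-fold to 1.79-fold higher in the sorted basal library, at 70.3, 206, 137 and 546 CPM, and Klf13 was at 57.5 CPM, 1.19-fold higher (0.931 to 1.52). Thus 2 of 9 members were at least 2-fold higher in the sorted basal library, where 28.6% of 9269 genes were, and 0 of 9 were 2-fold higher in basal cells of the total epithelium, where 15.8% of genes were. The median log2 ratio of total epithelial basal to sorted basal cells was -0.70 over the members and -0.46 over all genes. With the median ratio of all genes as the scale, the log2 ratio of Klf4 was -1.30 and that of Klf10 -0.90, so that Klf10 no longer passed 2-fold. On this scale Klf2 and Klf6 were higher in basal cells of the total epithelium, with log2 ratios of 0.58 and 0.49. The sorted basal library was taken whole, and 1758 of its 4771 cells had at least 10 basal marker counts. With that minimum applied there as well, 2 members again passed 2-fold. With cells also thinned to 400 counts, Klf3 (log2 -1.06) and Klf5 (log2 -1.003) passed in addition to Klf4 and Klf10.

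Immediate-early and heat-shock genes, which respond to tissue handling, were compared between the same libraries. Of 13 immediate-early genes 5 were at least 2-fold higher in the sorted basal library, where 28.6% of all genes were, namely Fosb (2.79-fold), Jun (2.09-fold), Jund (2.15-fold), Btg2 (2.05-fold) and Nr4a1 (2.04-fold), and 3 of 4 heat-shock genes were, namely Hspa1a (2.53-fold), Hspa1b (5.33-fold) and Hsph1 (2.81-fold). The median log2 ratio of total epithelial basal to sorted basal cells was -0.32 over the immediate-early and -1.41 over the heat-shock genes, as against -0.46 over all genes. Ier2, Ier3 and Zfp36 were lower in the sorted basal library, with Ier3 at 780 CPM as against 1482 CPM. Ribosomal protein genes took 4.45% of counts in the sorted basal library and 8.95% in basal cells of the total epithelium. The fibroblast markers summed to 605 CPM in the sorted basal library and 358 CPM in the basal cells, and the luminal keratins to 1731 and 2720 CPM. The part of these differences in the Klf4 and Klf10 ratios was not tested, and the libraries also differ in mice and gate, which cannot be told apart from the library itself.

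**Figure D4:**
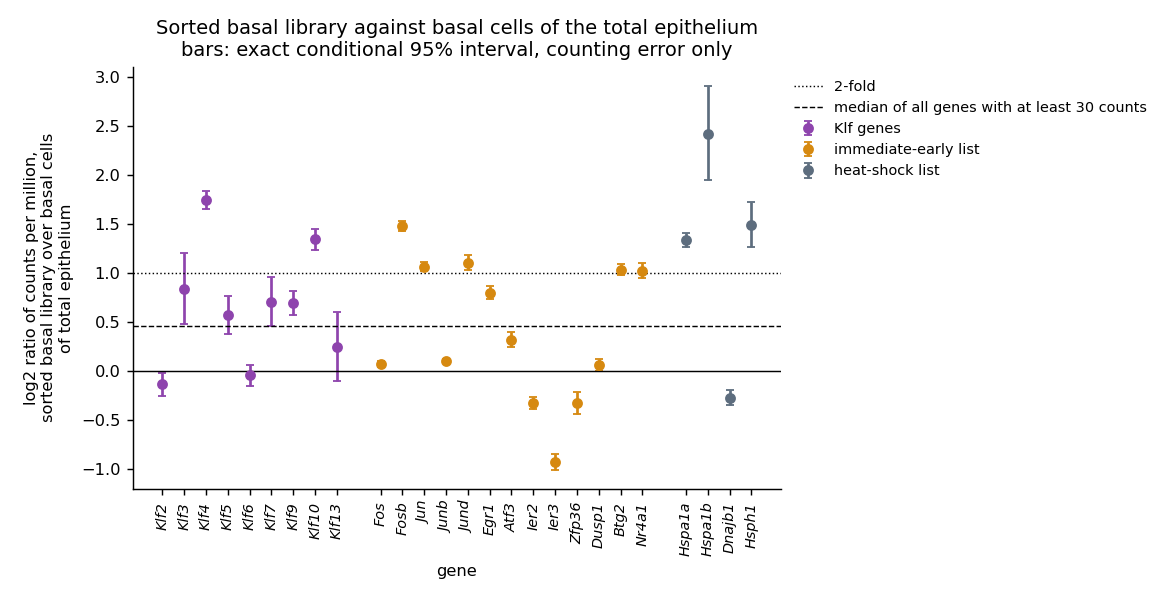
Log2 ratio of CPM in the sorted basal library to basal cells of the total epithelial library (y axis) for the 9 Klf genes, 13 immediate-early genes and 4 heat-shock genes (x axis), with exact conditional 95% intervals, a dashed line at the median of all genes and a dotted line at 2-fold. Klf4 and Klf10 lie above 2-fold, and Klf2, Klf6 and Klf13 lie below the median of all genes.

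Within a compartment, Klf2, Klf4 and Klf6 went together from cell to cell. Correlations were taken over cells within a compartment, on the natural log of 1 plus counts per 10000, and averaged over the 3 compartments. The points share a library, and cell depth and the many zeros bear on every value, so that these are descriptions and small values carry no finding. Of the 36 pairs of members the highest mean r were 0.25 for Klf2 with Klf6, 0.22 for Klf2 with Klf4 and 0.19 for Klf4 with Klf6, and the median over pairs was 0.03. For Klf2 with Klf6, r was 0.42 over the 1133 ML cells, 0.24 over the 766 LP cells and 0.09 over the 1280 basal cells.

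The genes most like these 3 members, among 3630 genes with a count in at least 5% of the cells of each compartment, were led by immediate-early genes. For Klf2 they were Fosb (mean r 0.40), Fos (0.37) and Atf3 (0.36), for Klf4 they were Fosb (0.33), Atf3 (0.25) and Fos (0.23), and for Klf6 the leading genes were Atf3 (0.36) and Fosb (0.32). In ML cells the r of Klf2 was 0.52 with Fosb and 0.52 with Atf3. Between compartments these genes did not follow Klf2 alike. Fosb was at 1489 CPM in basal, 1249 CPM in LP and 1346 CPM in ML cells, and Atf3 was at 1035, 1624 and 1926 CPM. Of the 13 immediate-early genes 5 were at least 2-fold higher in basal than in ML cells (Junb, Egr1, Ier3, Dusp1 and Nr4a1) and Jun was 2.20-fold higher in ML cells. Of the 4 heat-shock genes 2 were at least 2-fold higher in basal than in ML cells (Dnajb1 and Hsph1). Among all 9521 genes, 19.1% were at least 2-fold higher in basal and 19.3% in ML cells.

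The other members had weaker and different neighbours. Klf9 was most like Trf, the transferrin gene, with a mean r of 0.22, followed by Igfbp5 (0.19) and Mfge8 (0.18). Klf5 was most like Lcn2 (0.19), Plet1 (0.18) and Trf (0.16), and Klf10 most like Sfn (0.20), Lmna (0.16) and Plet1 (0.15). Klf7 reached 0.14 with Trf, 0.11 with Mfge8 and 0.10 with Cst3, and no gene reached 0.1 with Klf3 or Klf13. At 800 counts per cell, the median cell had a count of 1 of the 9 members in basal and of 2 in LP and ML cells, and none was found in 20.9% of basal cells, 14.6% of LP cells and 17.7% of ML cells.

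Genes that act upstream of the members were compared in the same way. Klf2 is a known target of the kinase cascade of MEK5 and ERK5 (Map2k5 and Mapk7) through MEF2 factors. Of these 5 genes none was at least 2-fold higher in ML than in basal cells, where 19.3% of 9521 genes were. At least 2-fold higher in basal than in ML cells were 3 of them, where 19.1% of genes were. They were Mef2a (2.55-fold), Mef2c (80.5-fold, 27.0 to 395) and Mef2d (2.05-fold). These are transcript levels, and their relation to the Klf2 level was not tested. Mef2c rested on 155 counts in basal cells, 58.5 CPM, and 3 counts each in LP and ML cells. Map2k5 stood at 20.7 CPM in basal, 15.3 CPM in LP and 20.3 CPM in ML cells, and Mapk7 at 9.05, 5.10 and 7.02 CPM. Both kinase genes were higher in the sorted basal library than in basal cells of the total epithelium, by 2.19-fold and 3.42-fold.

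Klf9 is a known target of steroid and thyroid hormone receptors. The glucocorticoid receptor gene Nr3c1, like Klf9, was lowest in ML cells, but it was 1.59-fold higher in basal than in LP cells (1.16 to 2.20), with 44.9 CPM in basal (37.2 to 53.7), 28.3 CPM in LP (21.6 to 36.3) and 9.19 CPM in ML cells (6.51 to 12.6), and the progesterone receptor gene Pgr was highest in ML cells, with 3.39, 5.56 and 56.9 CPM. The thyroid hormone receptor gene Thra did not separate the compartments, with 37.3 CPM in basal (30.3 to 45.5), 32.9 CPM in LP (25.7 to 41.5) and 41.9 CPM in ML cells (35.9 to 48.6), and Nr3c2 and Thrb had 17 counts or fewer in each compartment. Of 6 glucocorticoid-responsive genes, Cebpd had no entry under this symbol in the deposited tables and was not measured. The other 5 had enough counts, with a median log2 ratio of basal to LP cells of -1.57. Of these, 4 were at least 2-fold higher in LP than in basal cells, as were 11.6% of 8653 genes, and Klf9 was 1.12-fold higher in LP. The 4 genes were Tsc22d3 (3.13-fold), Per1 (2.98-fold), Fkbp5 (12.6-fold, 6.10 to 30.1) and Zbtb16 (2.37-fold). The remaining gene, Sgk1, went the other way, at 1137 CPM in basal, 676 CPM in LP and 740 CPM in ML cells. Tsc22d3, Per1 and Fkbp5 were also 2.03-fold, 3.66-fold and 5.61-fold higher in LP than in ML cells, and Zbtb16 was 3.25-fold (1.82 to 6.25) and Fkbp5 2.25-fold (0.997 to 5.70) higher in ML than in basal cells.

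Klf10 is a known TGF-beta target. Of the feedback genes of this pathway, Smad7 was 3.98-fold, Skil 2.30-fold and Ski 3.72-fold higher in basal than in ML cells. Smad7 and Ski were also 3.37-fold and 3.23-fold higher in basal than in LP cells, where Klf10 was 1.03-fold higher (0.933 to 1.13). Skil was 2.99-fold higher in LP than in ML cells. Between the sorted basal library and basal cells of the total epithelium, these 3 genes were within 2-fold.

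Of 12 genes of cofactors and turnover of Klf proteins, all 12 had enough counts. Between basal and ML cells, 2 were at least 2-fold higher in basal (19.1% of 9521 genes) and 1 in ML cells (19.3%). Between basal and LP cells, 1 was higher in basal (21.1% of 8653 genes) and 0 in LP cells (11.6%). Between LP and ML cells, 1 was higher in LP (9.75% of 8950 genes) and 1 in ML cells (17%). In the sorted basal library 1 was higher than in basal cells of the total epithelium (28.6% of 9269 genes) and 0 were lower (15.8%). The deacetylase gene Hdac1 was 2.07-fold higher in ML than in basal cells and 2.57-fold higher in ML than in LP cells, and Hdac2 was 2.51-fold higher in basal than in LP cells. Wwp1, which encodes a ubiquitin ligase of Klf5 and Klf2, was 4.05-fold higher in basal than in ML cells (2.18 to 7.91) and 2.30-fold higher in LP than in ML cells (1.09 to 4.90). The coactivator gene Crebbp was 2.09-fold higher in basal than in ML cells, and the corepressor gene Ctbp1 was 2.73-fold higher in the sorted basal library than in basal cells of the total epithelium.

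The other genes of the family were sparse. Of 8 further Klf genes, Klf11 and Klf16 had enough counts. Klf11 stood at 35.1 CPM in basal, 32.0 CPM in LP and 23.7 CPM in ML cells. Klf16 stood at 30.9, 27.8 and 12.1 CPM, so that it was 2.56-fold higher in basal (1.78 to 3.71) and 2.30-fold higher in LP than in ML cells (1.55 to 3.41), and it was 3.95-fold higher in the sorted basal library. Of 9 Sp genes, which bind GC boxes, Sp1, Sp2 and Sp3 had enough counts in every comparison, and Sp2 was 2.06-fold higher in ML than in basal cells (1.34 to 3.24). Between the sorted basal library and basal cells of the total epithelium, 4 Sp genes had enough counts. Of these, 3 were at least 2-fold higher in the sorted basal library, as were 28.6% of 9269 genes. They were Sp1 (2.30-fold), Sp2 (3.27-fold) and Sp3 (2.05-fold), while Sp4 stood at 8.44 CPM as against 7.54 CPM. Klf1, Klf14, Klf17, Sp7, Sp8 and Sp9 had no count in any of the 3 compartments.

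The 97 unassigned cells had the highest levels of the stromal markers and high levels of several members. Fibroblast markers summed to 8489 CPM in these cells, as against 358 CPM in basal, 83.4 CPM in LP and 1419 CPM in ML cells, where most of them were counts of Dcn. Endothelial markers summed to 1544 CPM as against 6.02 to 20.7 CPM in the 3 compartments, although the Lin- gate was set against the endothelial protein CD31. The cells were divided after these values were seen. In the 27 cells with a count of Pecam1, Cdh5, Kdr, Emcn or Fabp4, Klf2 stood at 4560 CPM (3929 to 5262), and all 27 had a Klf2 count (87.2% to 100%), at a median of 1273 counts per cell. This level was above that of ML cells. In the 36 cells with a collagen count and no endothelial marker count, Klf2 was at 985 CPM (746 to 1276) and was found in 12 cells.

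Klf9 was at 1020 CPM in these 36 collagen-positive cells (776 to 1315), found in 25 of them, and at 707 CPM in the 27 cells with endothelial markers (474 to 1016), both above the 376 CPM of LP cells. Klf4 was at 864 CPM (641 to 1139) and 731 CPM (494 to 1044), above the 473 CPM of basal cells. Klf5, by contrast, had 0 counts in the 27 cells, where 3 counts would be 73.1 CPM, and 1 count in the 36 cells. The ML cells included 20 cells with a collagen count. Without these and with at least 3 luminal keratin counts per cell, 1113 ML cells remained and the log2 ratio of Klf2 in basal to ML cells was -2.39, as against -2.40 with all ML cells.

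**Figure D5:**
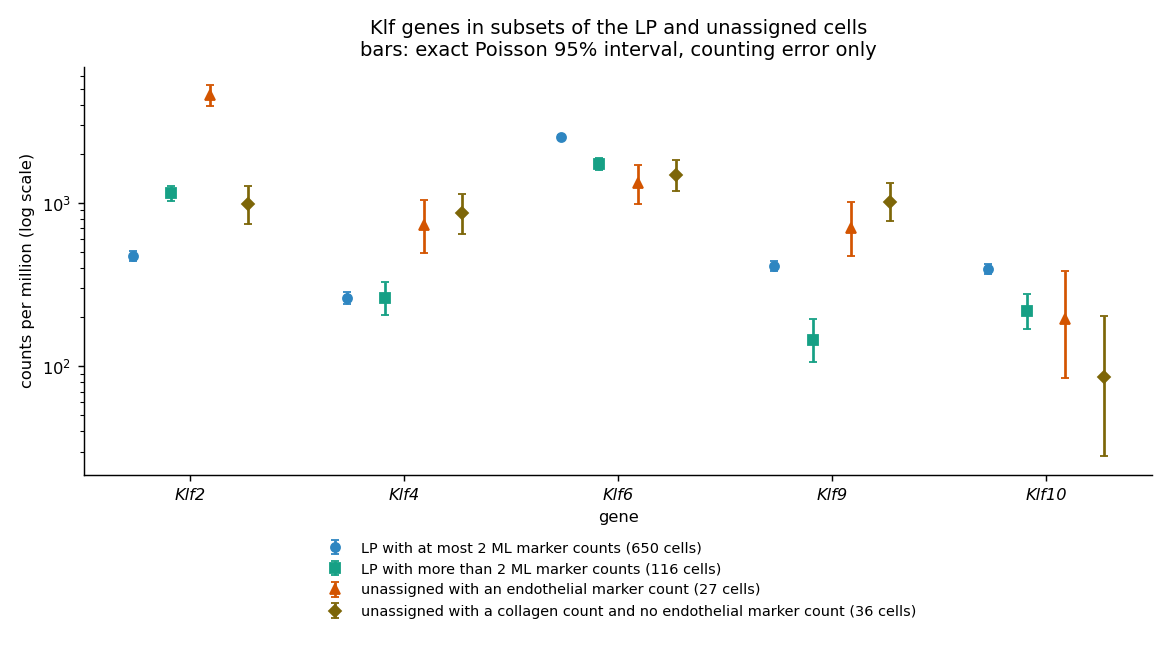
Counts per 1000000 (y axis, log scale, exact Poisson 95% intervals) of Klf2, Klf4, Klf6, Klf9 and Klf10 (x axis) in LP cells with at most 2 or more than 2 counts of the ML markers and in unassigned cells with an endothelial marker count or with a collagen count alone. Klf2 reached 4560 CPM in the 27 cells with an endothelial marker count, and Klf9 was lowest in the 116 LP cells with more than 2 ML marker counts.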

How the data were processed

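The authors deposited 1 table of counts per library, with 1 whole-number UMI count per gene and cell and no normalization. Reads were aligned to mm10 with Cell Ranger, for which the study's methods give version 2.0 and the submitters' processing notes 1.2.1. The deposited barcodes matched the labelled cell numbers, no further filter on cells was applied, and no doublet caller was run. Cells over both marker minimums were left out.

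Counts were summed per compartment and scaled to counts per 1000000 (CPM) (Python 3.11.15, numpy 2.4.6, scipy 1.17.1, pandas 2.3.3). Intervals at 95% are exact, Poisson for levels, Clopper-Pearson for shares and conditional binomial for ratios. A gene counted as higher when it had at least 30 counts over both groups and at least a 2-fold ratio. Thinning drew counts without replacement. The code was tested on simulated data with known ratios. Named genes were all 9 members, list genes past 2-fold, the 3 genes most like each member and the markers; a few of these are not reported here. The members and lists were chosen with earlier results of these data known. Positions come from GENCODE vM21 (GRCm38) and promoters from RefSeq. Alternatives changed the scaling, averaging, depth, count minimum, fold and cell rule.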

Additional observations from a re-analysis of the deposited data

How the results depend on the processing

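With 1 library per condition, no replicate could be left out. No paired analysis was possible because no result comes from a test. Of 315 values of single members under alternative settings, 62 lay outside the counting interval and 0 of those past 2-fold changed sign. Of 47 counts of members past the fold, 39 stayed within 1.5 times. Both tallies include settings that could not change a value, such as a limit on LP cells in the ratio of basal to ML cells. Between basal and LP cells the count was 1, and 2 at 1.5-fold and 2 with a marker minimum of 20 counts, where Klf2 passed as well (log2 -1.10). Between basal and ML cells the count was 7, and 4 at 3-fold. Between LP and ML cells it was 5, and 3 at 3-fold. Against the sorted basal library it was 2, and 1 with median-of-ratios scaling, 5 at 1.5-fold and 1 at 3-fold. A pair of settings was added after seeing the data: ML cells without collagen counts kept the counts of 7 and 5, and at least 10 basal marker counts in both libraries with 400 counts per cell gave 4. The causes were not tested. Counts per cell are low, so genes such as Klf3 and Klf13 are described from summed counts.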
